A study of Mus musculus with 4 samples.

Results

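The genes described here are 10 DNA polymerase genes of the mouse, taken by symbol from a table of 56350 annotated genes. They comprise 7 genes for subunits of the replicative polymerases (Pola1, Pola2, Pold1, Pold2, Pold3, Pole and Pole2) and 3 genes for translesion or repair polymerases (Polh, Polk and Polq). RNA of EO771 cells, a mouse mammary carcinoma line of the C57BL/6 strain, was sequenced in 2 libraries labelled BML-210 and 2 libraries labelled untreated. The first group was cultured with BML-210, an inhibitor of histone deacetylases, at 1.0 µM for 48 h. The second is called untreated in one label and WT in another, while the treatment protocol speaks of a vehicle control, and all the cells shared the same medium with serum and antibiotics. The library codes carry the letter V for the libraries labelled BML-210 and D for those labelled untreated, and the labels do not explain these letters, so the directions below hold only as far as the group labels do. Nothing in the labels says whether the replicates were separate cultures, so the p-values measure the spread between these libraries, which may be technical.

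Replicative polymerases copy the genome in S phase. Polymerase alpha, joined to primase, lays down the first stretch of each new strand, polymerase epsilon extends the leading strand, and polymerase delta extends the lagging strand. Translesion polymerases take over where a damaged base stops the fork: polymerase eta (Polh) copies past ultraviolet photoproducts, and polymerase kappa (Polk) past bulky adducts. Polymerase theta (Polq) joins broken ends through short stretches of matching sequence. Genes of the replication machinery are well known as targets of the E2F transcription factors, which are active at the entry into S phase.

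Libraries held 13167893 and 13961743 gene counts under BML-210 and 16534667 and 13855061 in the untreated group. In edgeR's quasi-likelihood test 46.4% of the 14455 genes tested passed an adjusted p of 0.05, 22.9% higher and 23.5% lower in the libraries labelled BML-210. Markers of dividing cells were higher with them: 9 of 10 cell cycle genes passed, and their summed level was 1635 to 1648 CPM under BML-210 and 989 to 1030 CPM in the untreated group (CPM, the count scaled by the TMM-normalised library size). What part of the polymerase values goes with a different share of dividing cells was not tested, and in bulk RNA a change in the number of S phase cells and a change of RNA per cell cannot be told apart. Of 12 epithelial markers, 5 were tested, and the list was mixed. Krt8 was present at 28.3 and 33.0 CPM under BML-210 and 43.6 and 49.2 CPM in untreated libraries. Erbb2 (mean 22.25 CPM under BML-210 and 20.16 CPM untreated) and Erbb3 (15.56 and 34.2 CPM) were present too. Esr1 was low (2.44 and 4.04 CPM), and Cdh1 had 0.785 to 0.984 CPM per library. Krt18 had 0 to 2 counts and Epcam 1 to 3 counts per library. Krt19 had 0 to 9 counts, Krt7 0 to 4, and Cldn3, Cldn4 and Cldn7 0 or 1. These markers of the labelled mammary epithelium were thus near absent and were not tested. The 12 macrophage and leukocyte markers summed to 4.01 to 4.92 CPM under BML-210 and 6.12 to 7.91 CPM in untreated libraries, with C1qc at 0 throughout. Only 3 of them were tested, and Adgre1 alone passed, from low counts. It had 1 and 4 counts under BML-210 and 33 and 13 in untreated libraries (log2 fold change -2.98, edgeR adjusted p = 3.83e-05). The 8 fibroblast markers summed to 120.4 to 126 CPM under BML-210 and 177 to 184 CPM in untreated libraries, most of it from Pdgfra (97.5 CPM under BML-210 and 156 CPM untreated), while Col3a1 went the other way (3.33 CPM under BML-210 and 1.13 CPM untreated), Col1a1 did not pass and Lum and Thy1 were at 0. The 8 endothelial markers summed to 41.3 to 42.2 CPM under BML-210 and 42.2 to 44.7 CPM in untreated libraries. Most of it came from Egfl7 (31.8 CPM under BML-210 and 34.6 CPM untreated). Emcn was at 0, and Tie1 had 0 to 2 counts and Tek 0 or 1 per library. The part of any of these cell types in the values below was not tested.

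The 10 genes were proposed with the fold changes of this same contrast known. Their differences between the groups are therefore given as a description, with no test, and tests are given for other genes. All 10 had enough counts to be fitted. In the fit across all genes, which was known when they were chosen, 6 of the 7 replicative genes were among the 22.9% called higher and 0 among the 23.5% called lower, and nothing is read from that count. The translesion and repair genes split 3 ways, with Polq higher, Polh lower and Polk at the same level. The median log2 fold change was 0.39 over the 7 replicative genes and 0.00 over both the 3 translesion and repair genes and all genes tested. The CPM ranges of the groups did not overlap for 8 of the 10 genes, 7 of them higher and 1 lower under BML-210, where 71.3% of all tested genes did not overlap, 35.2% of them higher and 36.1% lower.

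**Figure D1:**
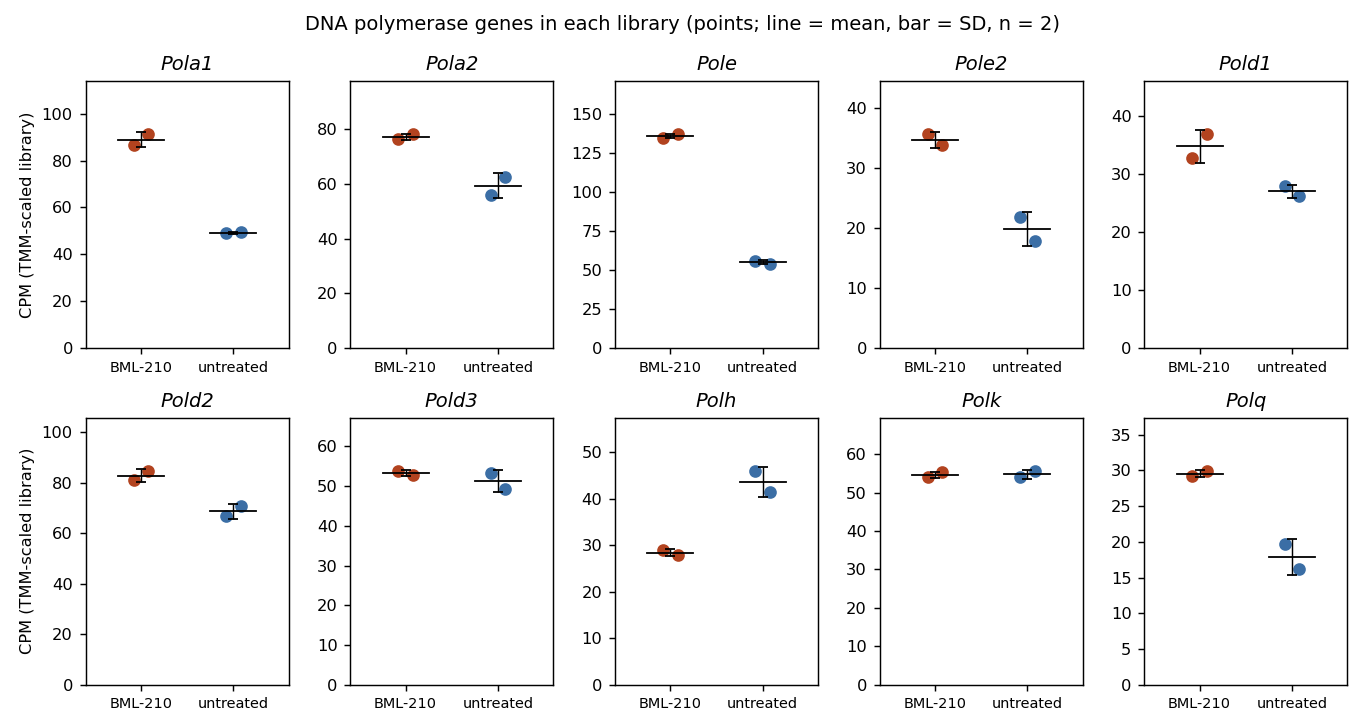
Level of each of the 10 polymerase genes in each library, in CPM on an axis from 0. Points are libraries, horizontal lines are group means and bars are the SD of 2 libraries; Pole is at 135 and 137 CPM under BML-210 against 55.9 and 54.2 CPM in untreated libraries, Polh is lower under BML-210, and the groups overlap for Pold3 and Polk.

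The largest difference among the 10 was that of Pole, which encodes the catalytic subunit of polymerase epsilon (ENSMUSG00000007080.14, chromosome 5, 110286306 to 110337474, mm10, plus strand). It had 135 and 137 CPM in the libraries labelled BML-210, against 55.9 and 54.2 CPM in the untreated ones, from raw counts of 1785 and 1921 against 918 and 744. The lowest BML-210 library thus lay far above the highest untreated one. The fitted difference between the groups was 2.47-fold, a log2 fold change of 1.31 ± 0.05 (SE). Pole2, the gene of the second subunit (ENSMUSG00000020974.6, chromosome 12, 69201773 to 69228195, minus strand), had 35.7 and 33.8 CPM under BML-210, against 21.9 and 17.8 CPM in untreated libraries. The groups did not overlap, and the log2 fold change was 0.79 ± 0.09 (SE), smaller than that of Pole. An exon of Pole overlaps one of Gm15792 and an exon of Pole2 one of Gm49384, and both of these other genes had 0 counts in the 4 libraries.

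Polymerase alpha was higher as well, its catalytic subunit more than its accessory one. Pola1 (ENSMUSG00000006678.6, chromosome X, 93304767 to 93632155, minus strand) had 86.8 and 91.1 CPM under BML-210, against 49.0 and 49.6 CPM in untreated libraries. The untreated pair differed by less than 1 CPM, and the log2 fold change was 0.85 ± 0.06 (SE). Pola2, which encodes the accessory B subunit (ENSMUSG00000024833.15, chromosome 19, 5940542 to 5964202, minus strand), had 76.4 and 78.0 CPM under BML-210, against 56.1 and 62.5 CPM in untreated libraries. Its groups did not overlap either, with a log2 fold change of 0.39 ± 0.06 (SE).

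Polymerase delta differed least among the replicative enzymes. Pold1, the catalytic subunit (ENSMUSG00000038644.14, chromosome 7, 44532746 to 44548849, minus strand), had 32.7 and 36.7 CPM under BML-210, against 27.8 and 26.2 CPM in untreated libraries. Its log2 fold change was 0.36 ± 0.08 (SE). Pold2, the second subunit (ENSMUSG00000020471.11, chromosome 11, 5872180 to 5878292, minus strand), had 81.0 and 84.6 CPM under BML-210, against 66.6 and 70.7 CPM in untreated libraries, a log2 fold change of 0.27 ± 0.05 (SE). Both genes lay higher in each BML-210 library than in either untreated one. Pold3, whose product binds the sliding clamp and is shared with the translesion polymerase zeta (ENSMUSG00000030726.16, chromosome 7, 100082111 to 100121565, minus strand), had 53.7 and 52.7 CPM under BML-210, against 53.3 and 49.2 CPM in untreated libraries. Here the groups overlapped, and the log2 fold change was 0.05 ± 0.06 (SE).

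Among the translesion and repair genes, Polh was the one that was lower. It encodes polymerase eta, which is lost in the variant form of xeroderma pigmentosum in humans (ENSMUSG00000023953.9, chromosome 17, 46171355 to 46202645, minus strand). Polh had 28.9 and 27.8 CPM under BML-210, against 46.0 and 41.4 CPM in untreated libraries, a log2 fold change of -0.63 ± 0.08 (SE). Polk, for polymerase kappa (ENSMUSG00000021668.15, chromosome 13, 96480690 to 96542579, minus strand), had 54.0 and 55.2 CPM under BML-210, against 54.0 and 55.6 CPM in untreated libraries. The ranges of the groups coincide almost entirely, and the log2 fold change was 0.00 ± 0.06 (SE). Polq, for polymerase theta (ENSMUSG00000034206.15, chromosome 16, 37011786 to 37095417, plus strand), had 29.2 and 29.9 CPM under BML-210, against 19.7 and 16.2 CPM in untreated libraries. It lay higher in both BML-210 libraries, with a log2 fold change of 0.71 ± 0.10 (SE), close in size to those of Pola1 and Pole2.

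**Figure D2:**
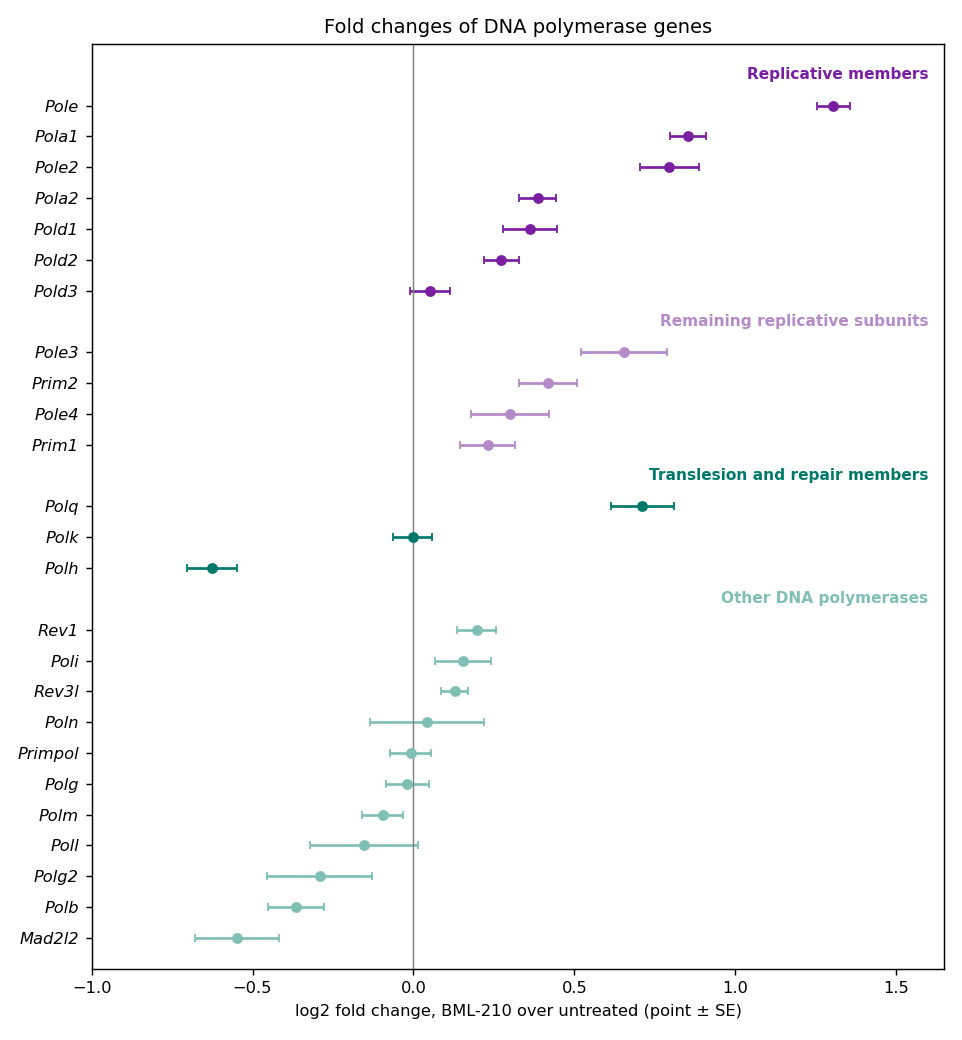
Log2 fold change of BML-210 over untreated for each tested DNA polymerase gene, grouped by role, with points for the fitted value and bars for its SE (2 libraries per group). Pole stands at 1.31 and Polh at -0.63, and the genes in the group headed other DNA polymerases lie between -0.55 and 0.20.

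Levels of different genes were compared per kilobase of the exonic length in the deposited table (FPKM, CPM divided by that length in kilobases). Pold2 had the highest level in both groups, 43.7 ± 1.33 FPKM under BML-210 and 36.2 ± 1.49 FPKM in untreated libraries (SD, n = 2), and Polq the lowest, 3.05 ± 0.05 FPKM under BML-210 and 1.85 ± 0.26 FPKM in untreated libraries. Under BML-210 the order below Pold2 was Pole (12.2 FPKM), Pole2 (12.1), Pold3 (11.6), Pola1 (10.1), Polk (9.84), Pola2 (9.31), Pold1 (7.15) and Polh (4.77). There the ranges of Pole and Pole2 overlapped, as did those of Pola1 and Polk. In untreated libraries the order was Pold3 (11.1 FPKM), Polk (9.87), Polh (7.34), Pola2 (7.15), Pole2 (6.90), Pola1 (5.59), Pold1 (5.56) and Pole (4.93). The ranges of Polh, Pola2 and Pole2 all overlapped in that group, as did those of Pola1 and Pold1. Pole was thus the gene of rank 2 among the 10 under BML-210 and of rank 9 in the untreated group, while Polh was of rank 9 under BML-210 and of rank 4 in the untreated group. The deposited length joins all annotated exons of a gene and so understates genes with long minor transcripts. With the length of the principal transcript in GENCODE M21, an alternative chosen after seeing the data, Pola2 moved to rank 2 in both groups (31.9 FPKM under BML-210 and 24.5 FPKM untreated), and Pole was of rank 4 under BML-210 and of rank 9 untreated.

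Within a library, the ratio of a pair of genes does not depend on the scaling. Its size does depend on the lengths used, so a ratio near 1 does not show equal levels. With the length of the principal transcript, Pola1 was at 16.6 FPKM and Pola2 at 31.9 FPKM under BML-210. The per-kilobase level of Pole over that of Pole2 was 0.978 and 1.05 in the libraries labelled BML-210, against 0.658 and 0.784 in the untreated ones. Pola1 over Pola2 was 1.07 and 1.10 under BML-210, against 0.823 and 0.747 in untreated libraries. In both enzymes the catalytic subunit was higher relative to its partner in each BML-210 library than in either untreated one. Polymerase delta did not show this: Pold1 over Pold2 was 0.158 and 0.170 under BML-210, against 0.163 and 0.145 in untreated libraries, with overlapping groups. Pole over Pold1, the catalytic subunits of the leading and lagging strand enzymes, was 1.80 and 1.62 under BML-210, against 0.875 and 0.900 in untreated libraries. Polh over Polk was 0.499 and 0.470 under BML-210, against 0.794 and 0.695 in untreated libraries. Polq over Polk was 0.310 in both BML-210 libraries, against 0.209 and 0.167 in the untreated ones. Summed over the 7 replicative genes and set against the sum over Polh, Polk and Polq, the ratio was 5.94 and 6.06 under BML-210, against 3.97 and 4.16 in untreated libraries. The groups did not overlap. With 2 libraries a group an exact two-sided permutation test cannot go below p = 0.33, so no test of these ratios was made.

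**Figure D3:**
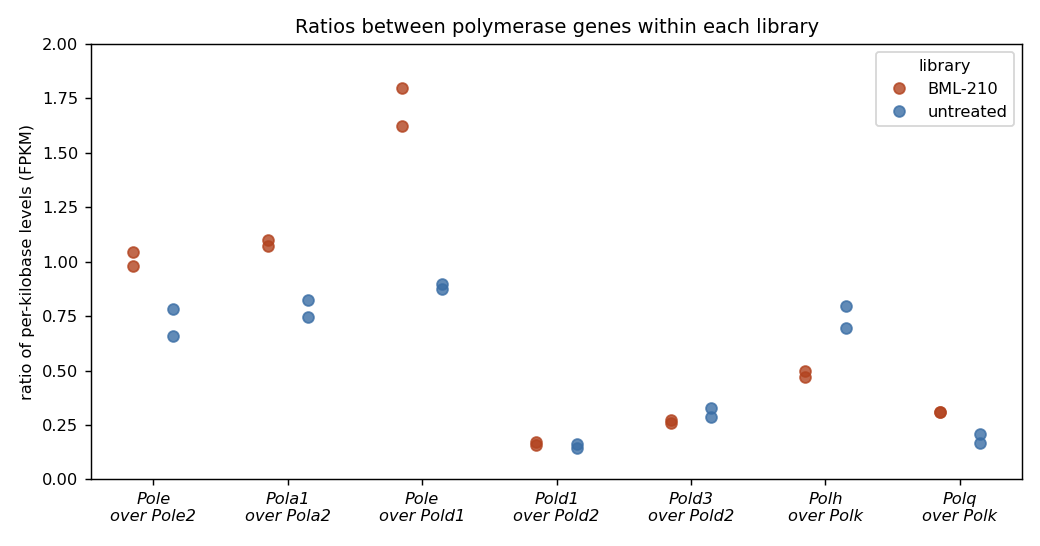
Ratio of per-kilobase levels (FPKM) of pairs of polymerase genes within each library, on an axis from 0; points are single libraries. Pole over Pold1 lies at 1.62 and 1.80 under BML-210 and at 0.875 and 0.900 untreated, and Pold1 over Pold2 overlaps between the groups.

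The subunits of the same enzymes that are not among the 10 gave a test on other genes, although they too were chosen with earlier results of these data known. All 4 that could be tested passed as higher under BML-210 (median log2 fold change 0.36), against 22.9% of all genes tested. They were Pole3 (log2 fold change 0.65, edgeR adjusted p = 3.9e-05), a histone-fold subunit of polymerase epsilon, and its partner Pole4 (0.30, edgeR adjusted p = 0.035). The primase genes were Prim2 (0.42, edgeR adjusted p = 0.000103), the large subunit, and Prim1 (0.23, edgeR adjusted p = 0.0218), the small catalytic one. Pole3 had 16.7 and 13.8 CPM under BML-210, against 10.1 and 9.18 CPM in untreated libraries, and Prim1 had 32.2 and 31.4 CPM under BML-210, against 28.4 and 25.6 CPM in untreated libraries. DESeq2 called 2 of the 4. Leaving out untreated replicate 2 (edgeR adjusted p = 0.203), BML-210 replicate 1 (0.113) or BML-210 replicate 2 (0.0528) ended the call of Prim1. The call of Pole4 ended on leaving out untreated replicate 1 (0.062), untreated replicate 2 (0.126) or BML-210 replicate 1 (0.275), and also with upper-quartile scaling (0.0584) and with no filter on low counts (0.0567). Pold4, the smallest subunit of polymerase delta, is listed at 0 counts in all 4 libraries, so no change of it could be measured. This holds for its row on chromosome 19 and for that of a copy on a separate scaffold. The treatment of reads that match both copies is not stated in the labels.

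Of the other 11 DNA polymerase genes tested, 2 were higher, 2 lower and 7 did not pass, against 46.4% of all genes called (median log2 fold change -0.02). Polb, the base excision repair polymerase, fell (23.7 and 25.2 CPM under BML-210, against 31.8 and 31.2 CPM untreated; log2 fold change -0.36, edgeR adjusted p = 0.000376). Polymerase zeta and Rev1 act together in translesion synthesis, and their genes went different ways. Mad2l2, the accessory subunit of polymerase zeta, fell (9.92 and 13.7 CPM under BML-210, against 15.8 and 19.1 CPM untreated; -0.55, edgeR adjusted p = 0.000351). Its value rested in part on single libraries, at -0.34 without BML-210 replicate 1 (edgeR adjusted p = 0.0498) and -0.81 without BML-210 replicate 2. Rev3l, the catalytic subunit of polymerase zeta, rose slightly (151 and 152 CPM under BML-210, against 142 and 135 CPM untreated; 0.13, edgeR adjusted p = 0.00963), as did Rev1, the scaffold of translesion synthesis (0.20, edgeR adjusted p = 0.00487). DESeq2 called 2 of the 11, both lower. Leaving out untreated replicate 2 (edgeR adjusted p = 0.125) or BML-210 replicate 2 (0.0831) ended the call of Rev3l. Leaving out BML-210 replicate 1 ended that of Rev1 (0.102). Exons of Rev1 share 1643 bases with Eif5b on the other strand, so its count is uncertain.

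The polymerases that did not pass had fitted log2 fold changes of -0.29 to 0.15. They include the translesion genes Poli (0.15), called only without BML-210 replicate 2 (edgeR adjusted p = 0.0422), and Primpol (-0.01), which primes again beyond lesions. Polm (-0.10) and Poll (-0.15), which fill gaps in end joining, and Poln (0.04) did not pass either. Nor did the mitochondrial replicase genes Polg (-0.02) and Polg2 (-0.29). Exons of Polg, Primpol and Poln overlap those of the expressed genes Fanci, Cenpu and Haus3. Dntt, the lymphoid polymerase that adds bases without a template, had 0 or 1 count per library and was not tested.

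Of 29 genes for clamp, clamp loader and fork proteins, which work beside the replicative polymerases, 18 passed as higher, 0 as lower and 11 did not pass (median log2 fold change 0.39). Of all genes tested, 22.9% passed as higher and 23.5% as lower. The largest rises were those of the clamp loader subunit gene Rfc5 (21.5 ± 3.49 CPM under BML-210 and 11.2 ± 2.51 CPM untreated, SD, n = 2; 0.92, edgeR adjusted p = 2.78e-08) and of Dscc1, of the loader variant for cohesion (0.91, edgeR adjusted p = 0.00303). Mcm10, which helps the helicase start (0.86, edgeR adjusted p = 3.75e-15), and the fork protection gene Timeless (0.80, edgeR adjusted p = 2.04e-09) followed. The clamp itself, Pcna, to which polymerases delta and epsilon and the translesion polymerases bind, had 60.2 and 58.9 CPM under BML-210, against 43.6 and 46.2 CPM in untreated libraries (0.41, edgeR adjusted p = 1.68e-07); it was named outside the rule for named genes, after its value was seen. DESeq2 called 10 of the 29. The call of Dscc1 was lost without untreated replicate 2 (edgeR adjusted p = 0.0977) and without BML-210 replicate 2 (0.0769), and its log2 fold change was 1.41 without untreated replicate 1 and 0.58 without untreated replicate 2. Exons of Rfc5 overlap those of the expressed gene Wsb2.

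Genes that steer translesion synthesis at the clamp passed in 7 of 15 cases, 6 higher and 1 lower (median 0.08), a share close to the 46.4% of all genes tested. Of all genes tested, 22.9% were called higher and 23.5% lower. Pcna belongs to this list as well as to that of the clamp and fork proteins, and is counted as higher in both. Rad18, the ligase that marks the clamp with ubiquitin so that translesion polymerases can bind, had 131 and 130.4 CPM under BML-210, against 77.1 and 77.6 CPM in untreated libraries (0.76, edgeR adjusted p = 8.36e-21). Usp1, which removes that mark, had 126 and 122 CPM under BML-210, against 73.0 and 64.0 CPM in untreated libraries (0.85, edgeR adjusted p = 4.03e-21). Both the gene that sets the mark and the gene that takes it off thus rose, while Polh, whose product binds the marked clamp, was lower. The clamp binder Pclaf (1.12, edgeR adjusted p = 1.89e-12) and Dtl, a substrate adaptor that has clamp-bound proteins degraded (0.72, edgeR adjusted p = 4.72e-19), rose. Hltf, a ligase that extends the mark, fell (61.4 and 60.2 CPM under BML-210, against 75.3 and 77.9 CPM untreated; -0.33, edgeR adjusted p = 1.1e-06).

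Of 14 end joining genes, which act with polymerases theta, lambda or mu at breaks, 7 were higher, 3 lower and 4 did not pass (median 0.15), where 22.9% of all genes tested were higher and 23.5% lower. Nbn (0.74, edgeR adjusted p = 2.53e-07) and Rbbp8 (0.70, edgeR adjusted p = 4.49e-15), which start the resection of ends that theta-mediated joining needs, rose beside Polq. Xrcc5 (-0.63, edgeR adjusted p = 2.2e-06), the large Ku subunit, and Trp53bp1 (-0.32, edgeR adjusted p = 3.05e-06), which restrains resection, fell. The remaining gene of the 3 called lower was Parp1 (-0.21, edgeR adjusted p = 6.66e-05). Parp1 was named outside the rule for named genes, after its value was seen. Prkdc, the kinase that Ku recruits, rose (0.33, edgeR adjusted p = 3.78e-07). DESeq2 called 6 of the 14, and exons of Trp53bp1 overlap those of the expressed gene Tubgcp4.

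Position in the genome was not used to choose the genes. By the deposited coordinates, 4 of the 10 start within 1000 bases of a gene on the opposite strand. Polh starts 137 bases from Xpo5, which encodes the exporter of miRNA precursors. Xpo5 had 182 and 188 CPM under BML-210, against 117 and 126 CPM in untreated libraries, and rose (log2 fold change 0.61, edgeR adjusted p = 7.38e-19) where Polh was lower. No exon of either gene overlaps that of another gene. Polk starts 39 bases from Col4a3bp, the ceramide transfer protein gene, which had 86.4 and 76.8 CPM under BML-210, against 78.1 and 72.0 CPM in untreated libraries, with overlapping groups (0.12, edgeR adjusted p = 0.0836). Col4a3bp passed without untreated replicate 1 (edgeR adjusted p = 0.0264), without BML-210 replicate 2 (0.0113) and with library size as the only scaling (0.0476). Pole starts 120 bases from Pxmp2, a peroxisomal membrane protein gene that was low, with 2.2 and 2.5 CPM under BML-210 and 2.1 and 1.4 CPM untreated (0.42, edgeR adjusted p = 0.286). The neighbour of Pole2, Gm47545, had 1 to 4 counts per library and was not tested. The bases between the paired starts are shown for Polh and Polk. The genes on either side went opposite ways in one pair (Polh lower, Xpo5 higher) and had overlapping groups in the other. The bases are written on the minus strand, upstream of the polymerase gene, with the GC box of the Polh stretch in capitals. The Polk stretch shown holds no GC box.
Polh, chr17:46202646-46202781: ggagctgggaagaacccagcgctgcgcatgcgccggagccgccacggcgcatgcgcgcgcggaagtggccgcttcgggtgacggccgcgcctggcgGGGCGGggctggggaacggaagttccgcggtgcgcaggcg
Polk, chr13:96542580-96542617: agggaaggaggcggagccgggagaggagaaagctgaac

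**Figure D4:**
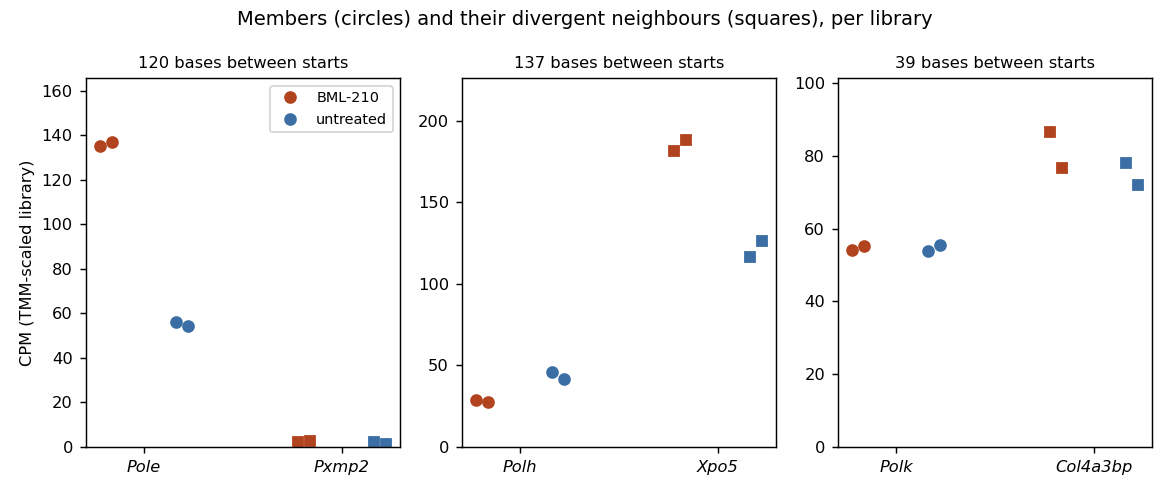
CPM per library of Pole, Polh and Polk (circles) and of the genes that start close by on the opposite strand (squares), on axes from 0. Polh is lower and Xpo5 higher under BML-210, Pxmp2 is at 2.5 CPM or below in each library, and Col4a3bp overlaps between the groups.

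RefSeq promoters (GRCm38.p6, the same assembly as mm10, from 250 bases before to 50 bases after the start) matched 9 of the 10 genes. Pole had no promoter in that set, so its promoter was not searched. The promoters were searched on both strands for the E2F-type octamers TTTCCCGC, TTTGGCGC, TTTCGCGC and TTTGCCGC. They were also searched for CCAAT, for the cell cycle homology element TTTGAA and for the GC box GGGCGG. The E2F-type and GC box letters can share bases. An E2F-type octamer occurred in 4 of the 9 promoters, those of Pola1, Pold1, Pold3 and Pole2, where 2.26% of all 32851 promoters and 3.92% of the 12462 promoters of tested genes hold one. The 4 matches are shown with up to 10 bases on each side, on the strand of the gene (the minus strand in each), with the octamer or its reverse complement in capitals.
Pola1, chrX:93632276-93632303: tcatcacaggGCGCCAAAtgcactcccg
Pole2, chr12:69228163-69228190: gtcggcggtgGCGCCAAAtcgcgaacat
Pold1, chr7:44548766-44548786: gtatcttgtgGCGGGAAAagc
Pold3, chr7:100121468-100121495: agcgaagctgTTTCCCGCcggcgggagc
Pola1 and Pole2 carry the same octamer and had log2 fold changes of 0.85 and 0.79. It lay before the RefSeq start in Pola1 (bases -138 to -131) and after it in Pole2 (bases 11 to 18). Pold1 and Pold3 share another octamer, on opposite strands, and had 0.36 and 0.05. That one lay after the start in both (bases 40 to 47 and 18 to 25). The fold changes were known when the matches were sorted, and whether the letters go with the fold change was not tested. The RefSeq start lay 34 bases from the deposited gene start for Pold1 and 63 for Pold3, against 0 for Pola1 and 5 for Pole2. Pola2, Pold2 and Polq were higher under BML-210 with no octamer in this window. The promoters of Polh, Polk and Pola2 held a GC box and none of the other letters. The GC box occurred in 8 of the 9 promoters and in 61.8% of those of tested genes, CCAAT in 2 of 9 and 38.0%, and TTTGAA in 1 of 9 (Polq) and 12.1%. A match is a description of the letters and not a measured binding site.

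The 5 genes outside the lists whose pattern over the 4 libraries was most like the mean of the 7 replicative genes were Mcm6, Zfx, Psph, Nup85 and Kif20b, with log2 fold changes of 0.57 to 0.59. Likeness was the Euclidean distance between log2 CPM centred on the mean of each gene, 0.0158 to 0.0260 for these 5. With 4 libraries it mainly ranks genes by the size of the group difference, and 181 of 10041 genes lay within a distance of 0.1.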

How the data were processed

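Total RNA libraries (KAPA RNA HyperPrep, paired-end on a NovaSeq instrument, per the labels' protocols) were counted by the authors. The deposited table holds raw read counts per gene and, per the file headers, the length of the joined exons. The submitters' processing notes name STAR 2.5, featureCounts (Subread 1.5.1), edgeR 3.20.8 and build mm10. How strand, shared exons and reads with several matches were handled is not given there. Each column carries the library name found in a sample's label.

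The test was that of edgeR 4.0.16 (R 4.3.3): filterByExpr, TMM scaling, and the robust quasi-likelihood fit with the group alone (2 residual degrees of freedom), adjusted by Benjamini-Hochberg over all 14455 genes and called below 0.05. SEs are approximate, the fitted log2 value divided by the square root of F. CPM use TMM-scaled library sizes. A count of 3 equals 0.181 to 0.228 CPM, a floor that covers counting error only. The replicates of a group differed beyond sampling noise (chi-square per degree of freedom 1.80 between the BML-210 libraries and 2.89 between the untreated ones). The spread beyond counting error was small, with a common biological coefficient of variation of 2.49% in the edgeR fit. These values cannot tell separate cultures from technical repeats. Each library was entered as 1 sample. The fit was checked on simulated data.

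The members, lists and the rule for named genes were chosen with earlier results of these data known. The rule names all members, all tested polymerase genes, up to 4 called genes with the largest change and up to 2 against the median per further list, divergent neighbours within 1000 bases, and the 5 genes of at least 5 CPM closest in pattern (log2 of CPM plus 0.5). Alternatives were scaling by RLE, by upper quartile or by library size alone, no filter, a mean of at least 1 CPM, a replicate block, each library left out, genes over 1% of counts left out, and DESeq2 1.42.0. Promoter sequences are from RefSeq (GRCm38.p6).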

Additional observations from a re-analysis of the deposited data

How the results depend on the processing

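Over the 12 alternatives the median log2 fold change ran from 0.36 to 0.46 for the 7 replicative genes. For the 3 translesion and repair genes it ran from -0.03 to 0.02, which is the value of Polk alone in each setting. The 8 polymerase genes whose groups did not overlap kept their direction under each alternative. Pold3 ranged from 0.00 to 0.11 and Polk from -0.03 to 0.02. DESeq2 made fewer calls than edgeR: 4335 genes in all (6714 with edgeR), 2 of the 4 remaining replicative subunits, 2 of the 11 other polymerases, 10 of the 29 clamp and fork genes and 6 of the 14 end joining genes. The cause was not tested. With each library left out in turn, 2 to 3 of the 4 remaining replicative subunits were called. Values near 0 changed sign: Primpol was 0.007 with library size as the only scaling, and with single libraries left out it ran from -0.056 to 0.036, Polg from -0.078 to 0.031 and Poln from -0.11 to 0.19. The cause was not tested. Same-numbered replicates did not deviate together (correlation of deviations 0.00788 over 10140 genes). With 2 libraries a group this cannot tell whether same-numbered libraries were handled together, and the labels do not say. A replicate block gave 6847 calls. With 2 libraries a group, a gene that did not pass may still differ.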
